A study of Homo sapiens with 9 samples.

Results

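The genes described are the integrin and laminin subunits, the receptor and ligand chains through which cells hold on to the basement membrane. They were chosen by symbol, as the integrin alpha and beta chains and the laminin alpha, beta and gamma chains that had a probe set with that symbol alone, and no measured value was used. There were 37 such genes with 1 probe set each, among 29096 probe sets that were not controls: 17 integrin alpha, 8 integrin beta and 12 laminin chains. ITGA1, the remaining symbol of the 38 in the rule, was not analysed here. All samples were cells of H9, a human embryonic stem cell line, taken at day 3. In 3 samples the cells were transfected with siRNA against TCF7L1, in 3 with a non-silencing siRNA, and 3 samples were left untreated, without siRNA. TCF7L1 is a DNA-binding partner of beta-catenin that mainly holds Wnt target genes down, and the knockdown was made to find its candidate targets. Each sample was hybridized to 1 array, all groups are of 1 cell line, and the labels do not state whether replicates came from separate cultures. The p-values then measure only the spread between these samples, which may be technical.

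An integrin is a pair of 1 alpha and 1 beta chain that spans the membrane. Its outer part binds matrix proteins such as laminin, fibronectin or vitronectin, and the tail of the beta chain recruits talin and kindlin, which link the receptor to actin and to focal adhesion kinase. A laminin is a trimer of 1 alpha, 1 beta and 1 gamma chain and is a main component of the basement membrane. Human pluripotent cells are known to attach to laminin with the alpha-5 chain through integrin alpha-6/beta-1 and to vitronectin through integrin alpha-V/beta-5.

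The knockdown was seen on every array of its group. TCF7L1 had signals of 389, 346 and 352 after TCF7L1 siRNA, 1709, 1703 and 1625 after non-silencing siRNA, and 1473, 1842 and 1667 without siRNA (log2 difference from non-silencing siRNA -2.17, adjusted p = 7.26e-06 by limma). All 8 stem cell markers, POU5F1, SOX2 and NANOG among them, lay above the median of their array on all 9 arrays. Of 9 fibroblast markers 2, COL1A1 and COL1A2, did so, and DCN, LUM and FAP were too dim to be tested. The summed signal of the 9 fibroblast markers was 977 to 1063 after TCF7L1 siRNA and 1166 to 1227 after non-silencing siRNA. Without siRNA it was 1180 to 1204. COL1A1 and COL1A2 were lower after TCF7L1 siRNA (log2 differences from non-silencing siRNA -0.46 and -0.23), neither at an adjusted p under 0.05 by limma. Of the 6 tested markers 3 lay above 0 in that comparison: COL3A1 and POSTN, which were above the median on 0 arrays, and PDGFRB (log2 difference 0.00). Against no siRNA 2 of the 6 lay above 0, with a median of -0.16. The part of fibroblasts in the differences of matrix genes below was not tested. No leukocyte marker of 8 lay above the median on all arrays, and 3 of 7 endothelial and platelet markers and 1 of 6 extraembryonic endoderm markers did. The spread of an array, as the interquartile range of log2 signals, was 2.78 to 3.11 after TCF7L1 siRNA, 2.79 to 3.17 after non-silencing siRNA and 3.03 to 3.16 without siRNA, and was narrowest in TCF7L1 replicate 2 and non-silencing replicate 3. In a bulk sample, fewer cells of a type and less RNA per cell cannot be told apart.

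Values are signals made by the authors with PLIER on a linear scale. The signal of a probe set depends on its own probes as well as on the transcript, so each probe set was compared only with itself across arrays, and no order of levels between genes was read. As a sign of expression, a chain was called detected in a group when its signal lay above the median of all non-control probe sets of the array (108.6 to 116.9) on all 3 arrays of the group. That median lies close to the 75th percentile of the negative control probe sets (106.5 to 132). By this rule 17 of the 37 chains were detected after TCF7L1 siRNA, 17 after non-silencing siRNA and 18 without siRNA. The same 17 were above the median on all 9 arrays, 17 others were above it on none, and the remaining 3, ITGA2B and ITGB3 among them, were above it on some. Of all 29096 non-control probe sets, 13244 were above it on all 9 arrays, a share like that of the chains.

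**Figure D1:**
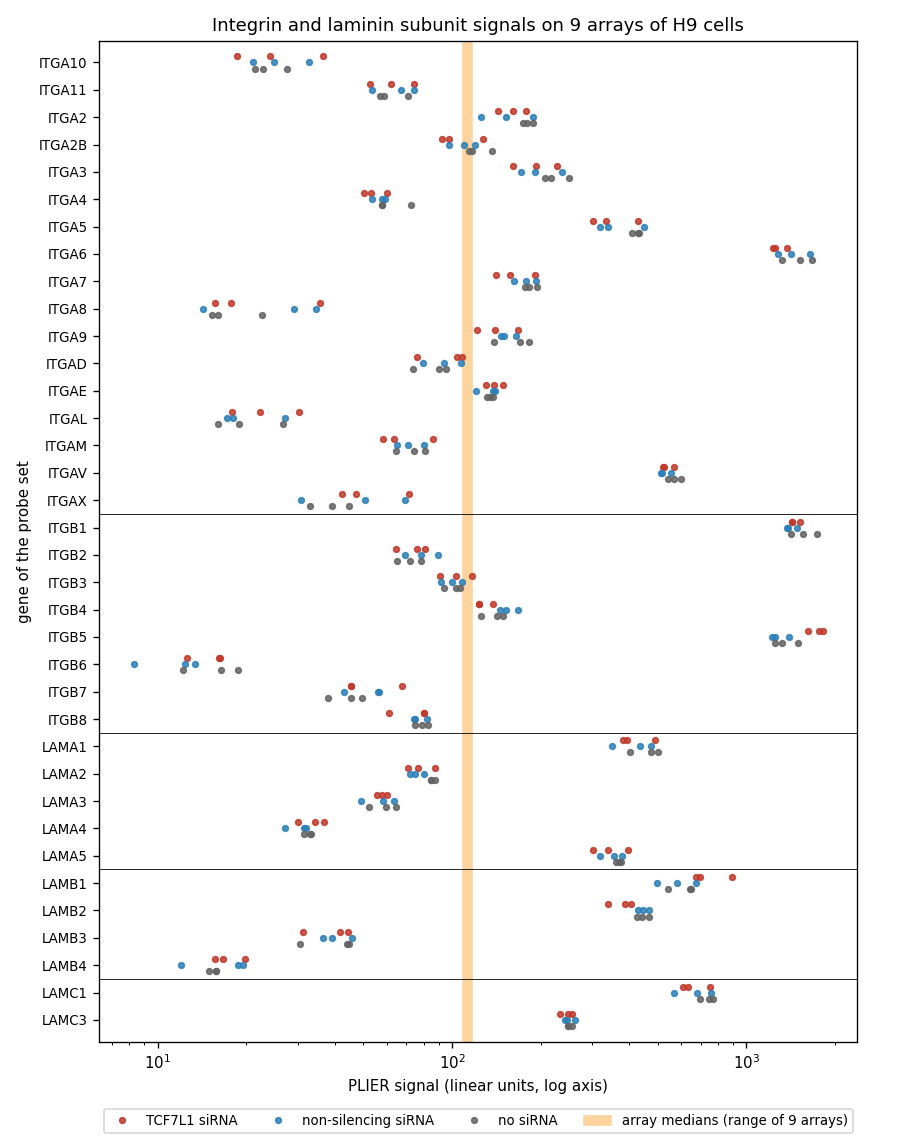
Signals of 36 integrin and laminin probe sets (horizontal axis, PLIER signal in linear units on a log axis), with 3 points per group on each row and the range of the 9 array medians as a vertical band. The points of the 3 groups lie over each other in most rows, 17 chains lie right of the band on all arrays and 17 left of their array's median on all arrays.

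Among 24 known integrin pairs, of which 23 could be measured on both sides, 9 had both chains detected, and they were the same 9 in all 3 groups. ITGB1, the beta chain shared by most matrix receptors, had detected partners in 7 of them: ITGA2, ITGA3, ITGA5, ITGA6, ITGA7, ITGA9 and ITGAV. The other pairs were alpha-6 with ITGB4, the chain of hemidesmosomes, and alpha-V with ITGB5. ITGAE was detected but its only known partner, ITGB7, was not. Among 17 known laminin trimers, 5 had all chains detected in every group: alpha-1 or alpha-5 with beta-1 or beta-2 and gamma-1, and alpha-5 with beta-2 and gamma-3. They use 2 of 5 alpha chains (LAMA1 and LAMA5), 2 of 4 beta chains (LAMB1 and LAMB2) and the gamma chains LAMC1 and LAMC3. These lists depend on the level used. Above the 95th percentile of the negative controls (1443 to 1966), no pair and no trimer was detected in any group.

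The 17 chains below the median on all arrays included those known mainly from other cell types. The leukocyte integrins ITGAL, ITGAM, ITGAX, ITGAD and ITGB2 lay between 16.1 and 108.1 on all arrays. The others were ITGA4, ITGA8, ITGA10, ITGA11, ITGB6, ITGB7 and ITGB8, LAMA2 and LAMA4, and LAMA3, LAMB3 and LAMB4.

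A probe set was tested when its signal passed the lower quartile (25th percentile) of the array on 3 or more arrays. This left 22784 probe sets and 32 of the 37 chains. The dim chains ITGA8, ITGA10, ITGAL, ITGB6 and LAMB4 were left out. No integrin or laminin chain passed an adjusted p of 0.05 between TCF7L1 siRNA and non-silencing siRNA (0 of 32, where 0.0263% of all tested probe sets passed by limma, 0.0219% as higher and 0.00439% as lower). At an unadjusted p under 0.05 stood 4 of 32 chains (2.58% of all tested probe sets): ITGB5 and LAMB1 with higher values and ITGB4 and LAMB2 with lower values after TCF7L1 siRNA. The same 4 were the chains whose arrays did not overlap between the 2 groups (4.99% of all tested probe sets, 1.88% as higher and 3.12% as lower). Differences given in parentheses beside an SE are log2 differences from non-silencing siRNA unless another comparison is named. The 32 log2 differences ran from -0.25 to 0.43 with a median of -0.02, and 14 lay above 0. Over all tested probe sets the median was -0.01 and 47.8% lay above 0. The 95% interval of the difference lay within 1.5-fold either way for 30 of the 32 chains, all but ITGB5 and LAMB1, and within 2-fold for all 32. Of all 22784 tested probe sets, 21552 had an interval within 1.5-fold and 22703 within 2-fold, so the chains were not unusual in this.

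**Figure D2:**
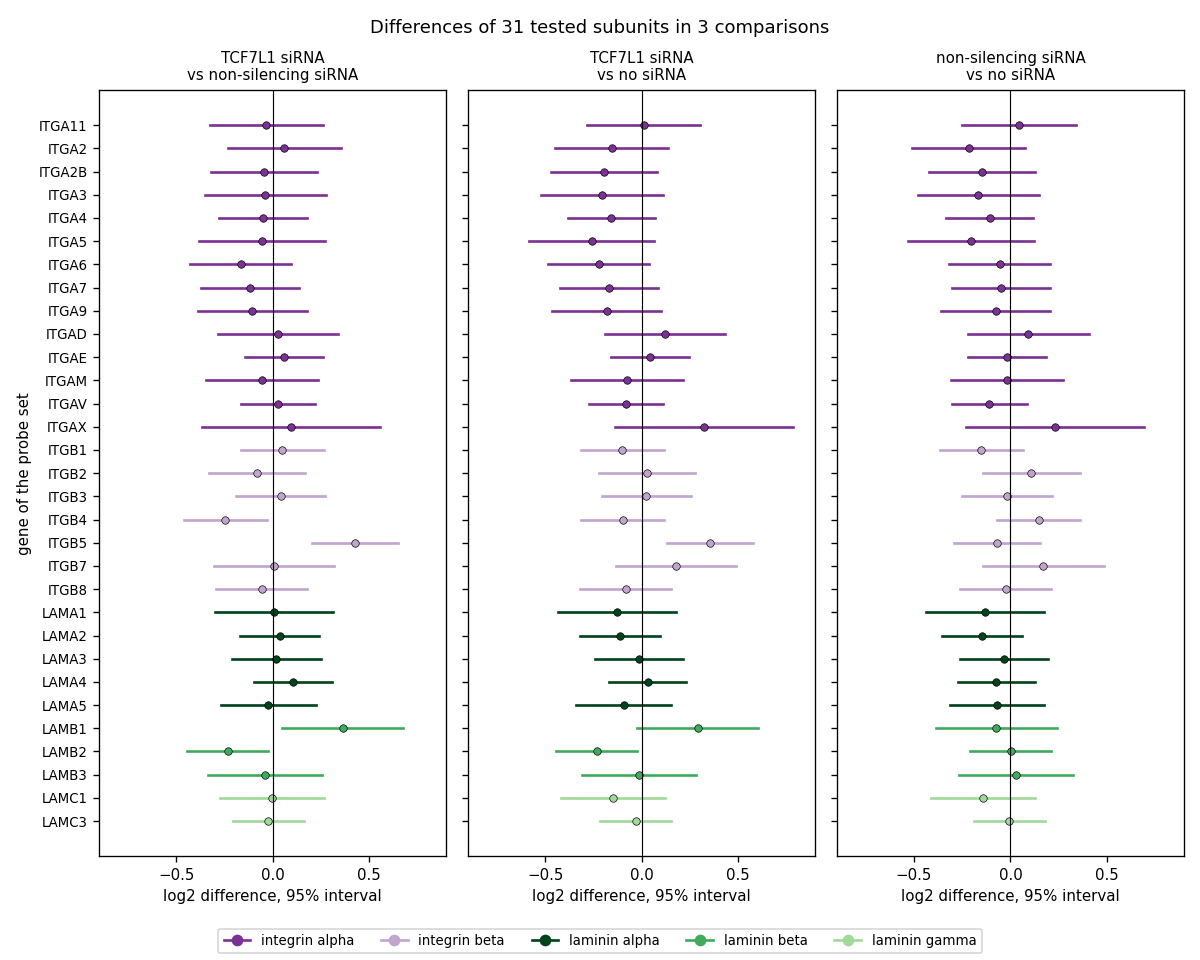
Log2 differences (points) with 95% intervals (lines) of 31 tested chains in the 3 comparisons, 1 row per chain, coloured by kind of chain. ITGB5 and LAMB1 stand furthest to the right in the left panel, at 0.43 and 0.36, and no chain shown passed the adjusted threshold in any panel.

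ITGB5, the beta chain that pairs with alpha-V in the vitronectin receptor, had the largest difference of the chains. Its signals were 1766, 1622 and 1821 after TCF7L1 siRNA, 1395, 1219 and 1252 after non-silencing siRNA, and 1252, 1322 and 1494 without siRNA. All 3 arrays after TCF7L1 siRNA were higher than all 6 others, and the 2 control groups overlapped. The mean was 1736 ± 103 after TCF7L1 siRNA, 1289 ± 93.3 after non-silencing siRNA and 1356 ± 124 without siRNA (SD, n = 3 each). The log2 difference from non-silencing siRNA was 0.43 (SE 0.10, 95% interval 0.20 to 0.65, 1.34-fold), which did not pass over all probe sets (adjusted p = 0.636). It kept its size without the 2 arrays of narrowest spread (0.45). Against no siRNA it was 0.35 (SE 0.10, 1.28-fold, adjusted p = 0.556). ITGB5 spans 124481795 to 124606152 on the minus strand of chromosome 3 (build 37), and its probe set holds 42 probes.

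ITGAV, the alpha chain of the same receptor, did not show such a difference. It had 526, 520 and 566 after TCF7L1 siRNA, 553, 516 and 510.99 after non-silencing siRNA, and 540, 569 and 599 without siRNA. The groups overlapped, and the log2 difference from non-silencing siRNA was 0.03 (95% interval -0.17 to 0.22). The other known beta partners of alpha-V were ITGB1, which was detected, and ITGB3, ITGB6 and ITGB8, which were detected in no group. ITGB3 had 91.2, 116.5 and 102.9 after TCF7L1 siRNA, 91.9, 99.6 and 108.2 after non-silencing siRNA, and 106.6, 93.7 and 103.4 without siRNA, with overlapping groups (0.04, SE 0.11).

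LAMB1 and LAMB2, which can replace each other beside the same alpha and gamma chains, had differences of opposite sign, and neither passed. LAMB1, the beta chain of the laminins of the early embryo, had 895, 695 and 674.7 after TCF7L1 siRNA, 674.1, 580 and 495 after non-silencing siRNA, and 644, 648 and 542 without siRNA. Every array after TCF7L1 siRNA was higher than the 6 others, but TCF7L1 replicate 3 and non-silencing replicate 1 were almost level. The log2 difference was 0.36 from non-silencing siRNA (SE 0.14, 95% interval 0.05 to 0.68, adjusted p = 1 to the digits given) and 0.29 from no siRNA (SE 0.14, 95% interval -0.02 to 0.60, adjusted p = 0.662). It depended on single arrays, with 0.25 without non-silencing replicate 3 and 0.24 without TCF7L1 replicate 1. Within each siRNA group, replicate 1 was the highest array. LAMB1 spans 107564263 to 107643804 on the minus strand of chromosome 7 (build 37). LAMA1 and LAMB1 are also known from extraembryonic endoderm, whose 6 markers summed to 711 to 922 after TCF7L1 siRNA, 592 to 924 after non-silencing siRNA and 627 to 665 without siRNA. Of the 5 tested markers, 4 had a log2 difference above 0 from non-silencing siRNA (median 0.07) and 5 from no siRNA (median 0.31). Between the controls 5 did (median 0.24), and none passed in any comparison. FOXA2 had the smallest p in both comparisons of TCF7L1 siRNA, with means of 131.7, 100.5 and 80.8 in the same order of groups. GATA6 alone lay above the median on all arrays, and the part of such cells in the difference of LAMB1 was not tested.

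LAMB2, the beta chain known from the laminins of kidney and nerve-muscle junctions, had 406, 339 and 387 after TCF7L1 siRNA, 465, 445 and 427 after non-silencing siRNA, and 424, 443 and 469 without siRNA. Its 3 arrays after TCF7L1 siRNA were lower than all 6 others. The log2 difference was -0.23 from non-silencing siRNA (SE 0.10, 95% interval -0.44 to -0.02) and -0.23 from no siRNA (SE 0.10, adjusted p = 0.662), and it did not pass in either. Of all tested probe sets 0.812% were higher and 1.37% were lower after TCF7L1 siRNA than on all 6 control arrays. Of the 32 chains, 2 (ITGB5 and LAMB1) and 1 (LAMB2) were. LAMB2 spans 49158547 to 49170599 on the minus strand of chromosome 3 (build 37).

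ITGB4, the partner of alpha-6 at hemidesmosomes, had 137.6, 123.5 and 123.9 after TCF7L1 siRNA, 145, 153 and 168 after non-silencing siRNA, and 149, 142 and 125 without siRNA. The siRNA groups did not overlap, but the arrays without siRNA overlapped those after TCF7L1 siRNA. The log2 difference was -0.25 from non-silencing siRNA (SE 0.10, 95% interval -0.46 to -0.03) and -0.10 from no siRNA (SE 0.10). Without the 2 narrowest arrays the first was -0.17. These signals lie just above the array medians.

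**Figure D3:**
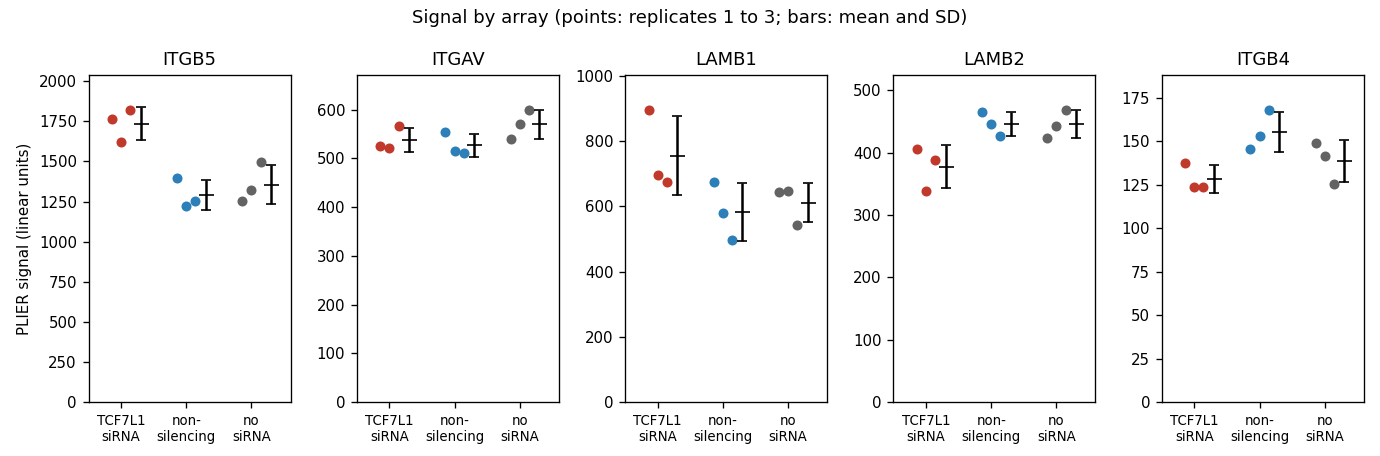
Signal of ITGB5, ITGAV, LAMB1, LAMB2 and ITGB4 on each array (points in replicate order from left to right; crossbars and whiskers: mean and SD of 3 arrays; vertical axis: PLIER signal in linear units from 0). ITGB5 and LAMB1 are higher and LAMB2 is lower on all 3 arrays after TCF7L1 siRNA than on the 6 others, while the groups overlap for ITGAV.

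The upstream sequence of ITGB5, LAMB1 and LAMB2 is shown because these were the chains that stood apart from both controls, and because TCF7L1 binds DNA. Each run holds the 250 bases before the RefSeq start of the gene on GRCh38.p14, all on the minus strand: chr3:124901419-124901668 for ITGB5, chr7:108003162-108003411 for LAMB1 and chr3:49133051-49133300 for LAMB2. Capitals mark the GC box GGGCGG, read on either strand as GGGCGG or CCGCCC, and a pair of overlapping matches in LAMB1 forms 1 longer run.
ITGB5: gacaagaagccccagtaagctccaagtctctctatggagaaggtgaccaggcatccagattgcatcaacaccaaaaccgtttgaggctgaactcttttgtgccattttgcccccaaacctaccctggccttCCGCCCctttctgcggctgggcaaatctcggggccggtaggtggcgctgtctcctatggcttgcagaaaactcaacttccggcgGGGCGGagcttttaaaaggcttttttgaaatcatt
LAMB1: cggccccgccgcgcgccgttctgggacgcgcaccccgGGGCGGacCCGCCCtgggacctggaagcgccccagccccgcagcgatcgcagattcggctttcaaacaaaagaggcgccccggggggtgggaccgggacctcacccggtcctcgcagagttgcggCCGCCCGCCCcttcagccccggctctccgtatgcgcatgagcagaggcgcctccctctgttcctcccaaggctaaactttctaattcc
LAMB2: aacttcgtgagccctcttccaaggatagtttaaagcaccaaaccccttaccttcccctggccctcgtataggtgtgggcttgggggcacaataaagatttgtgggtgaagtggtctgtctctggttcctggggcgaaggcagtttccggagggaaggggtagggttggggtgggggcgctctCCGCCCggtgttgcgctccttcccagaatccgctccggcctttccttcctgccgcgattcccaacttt

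ITGB5 held 2 GC boxes, LAMB1 4 and LAMB2 1 in these windows. None of the 3 held the TCF/LEF core CTTTGA or its reverse TCAAAG. Such a window was at hand for 25 of the 37 chains. The TCF/LEF core was found in 3 of the 25 (ITGAE, ITGAM and LAMA2), where 11.4% of 27305 promoters held it. The GC box was found in 13 of the 25, where 42.3% of all promoters held it, and the TATA box TATAAA (reverse TTTATA) in 1, ITGA6, where 11.1% held it. The GC content of the 25 windows had a median of 60.4% and ran from 30.0% in ITGB6 to 82.8% in LAMA5, and the median over all promoters was 58.0%. A match of letters describes the window only and says nothing about binding. The probe set spans given above are on another build than the windows. Whether a window adjoins the start of the transcript that its probe set measures was not tested.

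The common beta chain and the alpha chains of laminin receptors overlapped between the groups. ITGB1 had 1527, 1429 and 1428 after TCF7L1 siRNA, 1481, 1381 and 1371 after non-silencing siRNA, and 1742.5, 1557 and 1418 without siRNA. The groups overlapped and the log2 difference from non-silencing siRNA was 0.05 (SE 0.10, 95% interval -0.17 to 0.27). ITGA6, the alpha chain of the main laminin receptor, had 1370, 1228 and 1250 after TCF7L1 siRNA, 1646, 1412 and 1285 after non-silencing siRNA, and 1673, 1517 and 1324 without siRNA. Only non-silencing replicate 3 lay within the range of the arrays after TCF7L1 siRNA in that comparison (log2 difference -0.17, SE 0.12), and only no siRNA replicate 3 in the other (-0.22, SE 0.12, adjusted p = 0.665).

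ITGA3 and ITGA7, alpha chains that also bind laminin, overlapped between all groups. ITGA3 had 227, 161 and 193 after TCF7L1 siRNA, 235, 171 and 192 after non-silencing siRNA, and 208, 217 and 249 without siRNA (log2 difference from non-silencing siRNA -0.04, SE 0.14). ITGA7, known as a muscle laminin receptor, had 191, 140.5 and 157 after TCF7L1 siRNA, 178, 193 and 162 after non-silencing siRNA, and 177, 194 and 182 without siRNA (-0.12, SE 0.12). In both genes TCF7L1 replicate 2, an array of narrow spread, was the lowest of its group.

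The chains of fibronectin, collagen and tenascin receptors also overlapped between TCF7L1 siRNA and non-silencing siRNA. ITGA5, the fibronectin receptor's alpha chain, had 428, 300.2 and 335 after TCF7L1 siRNA, 449, 339 and 319 after non-silencing siRNA, and 429, 408 and 432 without siRNA. Its log2 difference was -0.06 from non-silencing siRNA (SE 0.15) and -0.26 from no siRNA (SE 0.15, 95% interval -0.59 to 0.07). Replicate 1 of each siRNA group lay within or above the range of the untreated arrays and the other replicates lay lower. ITGA2, a collagen receptor chain, had 179, 143 and 161 after TCF7L1 siRNA, 189, 152 and 125 after non-silencing siRNA, and 179.9, 188 and 174 without siRNA (0.06, SE 0.13). ITGA9, which binds tenascin and osteopontin, had 167, 122 and 139.7 after TCF7L1 siRNA, 165, 150.2 and 147 after non-silencing siRNA, and 139, 171 and 182 without siRNA (-0.11, SE 0.13). Both genes overlapped between groups.

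ITGAE, which pairs with beta-7 on lymphocytes of epithelia, and ITGA2B, the alpha chain of the platelet fibrinogen receptor, lay near the array medians. ITGAE had 148, 130.1 and 139 after TCF7L1 siRNA, 120.5, 138 and 139.8 after non-silencing siRNA, and 138, 132 and 134 without siRNA (0.06, SE 0.09). ITGA2B had 127, 92.4 and 97.8 after TCF7L1 siRNA, 120.1, 109.9 and 97.9 after non-silencing siRNA, and 136, 114 and 117 without siRNA (-0.05, SE 0.13). ITGA2B was above the median on all 3 arrays only without siRNA, and its log2 difference between TCF7L1 siRNA and no siRNA was -0.19 (SE 0.13, adjusted p = 0.677).

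The remaining detected laminin chains overlapped between all groups. LAMA1, the alpha chain of the early embryo's laminin, had 488, 393 and 380 after TCF7L1 siRNA, 475, 434 and 350 after non-silencing siRNA, and 502, 475 and 402 without siRNA. The groups overlapped, with a log2 difference from non-silencing siRNA of 0.01 (SE 0.14, 95% interval -0.30 to 0.31). LAMA1 spans 6941885 to 7117813 on the minus strand of chromosome 18 (build 37) and is read by 80 probes. LAMA5, the alpha chain most widespread in basement membranes, had 397, 302 and 339 after TCF7L1 siRNA, 379, 356 and 318 after non-silencing siRNA, and 362, 369 and 374 without siRNA (-0.02, SE 0.11).

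LAMC1, the gamma chain that 4 of the 5 detected trimers contain, had 755, 608 and 634 after TCF7L1 siRNA, 757, 680 and 569 after non-silencing siRNA, and 748, 768 and 694 without siRNA (0.00, SE 0.12). LAMC3 was the most even of the detected chains, with 255, 233 and 248 after TCF7L1 siRNA, 261, 243 and 245 after non-silencing siRNA, and 256, 247 and 248 without siRNA (-0.02, SE 0.08). For LAMA1, LAMA5 and LAMC1, replicate 1 was the highest array in both siRNA groups.

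The order of the arrays within a group was shared by many chains. Of the 17 chains above the median on all arrays, 14 were lowest in TCF7L1 replicate 2 within their group, and 12 in non-silencing replicate 3. These are the arrays of narrowest spread, and over all 13244 tested probe sets above the median on all arrays 63.3% and 66.5% were lowest there. Without siRNA the lowest array was replicate 1 for 7 chains, replicate 2 for 3 and replicate 3 for 7. The part of array spread in the differences described here was not tested beyond the fits with spread as a covariate and without the 2 arrays, in which no chain passed. With the covariate 25 of all probe sets passed against non-silencing siRNA, where 6 did in the fit reported and 4 without the 2 arrays. The smallest adjusted p of a chain with the covariate was 0.122 by limma (ITGB5), where ITGB5 had 0.636 in the fit reported.

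Against no siRNA, the question is whether TCF7L1 siRNA differs from cells that met no siRNA at all. No chain passed (0 of 32, where 0.0527% of all tested probe sets passed by limma, 0.0307% as higher and 0.0219% as lower), and 2 chains, ITGB5 and LAMB2, stood at an unadjusted p under 0.05 (7.26% of all tested probe sets). The arrays did not overlap for 3 chains, ITGB5, LAMB1 and LAMB2 (14.4% of all tested probe sets, 6.43% as higher and 7.93% as lower). Log2 differences ran from -0.26 in ITGA5 to 0.35 in ITGB5. Of the 17 chains detected on all arrays 3 lay above 0 with a median of -0.13. Of the 13244 probe sets above the median on all arrays 32.7% lay above 0, with a median of -0.05.

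The comparison of the controls sets a transfected siRNA without this target against no siRNA. No chain passed (0 of 32, where 0% of all tested probe sets passed by limma) and none stood at an unadjusted p under 0.05 (2.41% of all tested probe sets). LAMA2, the alpha chain of the muscle laminins, was the only chain whose arrays did not overlap (6.86% of all tested probe sets, 2.47% as higher and 4.39% as lower), with 80.3, 75 and 72.1 after non-silencing siRNA and 87.3, 84.5 and 85 without siRNA, all below the array median. Of the 17 detected chains 2 lay above 0, ITGB4 (0.15, SE 0.10) and LAMB2 (0.00), with a median of -0.07, where 34.6% of the 13244 bright probe sets lay above 0. ITGB1 stood at -0.15 (SE 0.10), ITGA2 at -0.22 (SE 0.13), ITGA5 at -0.20 (SE 0.15), LAMC1 at -0.14 (SE 0.12) and ITGB5 at -0.07 (SE 0.10). Both comparisons with no siRNA share its 3 arrays, so their like signs are not separate evidence.

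Of the intracellular partners of integrins none passed. Of 30 adhesion adaptors and kinases, all tested, 0 passed in any of the 3 comparisons. Of all tested probe sets 0.0263% passed against non-silencing siRNA, 0.0527% against no siRNA and 0% between the controls. The 0 of 30 is near these shares. On all arrays 26 of the 30 were detected, as were 13244 of all 29096 non-control probe sets. FERMT1, or kindlin-1, which binds integrin beta tails and helps talin to activate them, had the smallest p of the list in both comparisons of TCF7L1 siRNA. It had 300.4 ± 15.6 after TCF7L1 siRNA, 214 ± 12.2 after non-silencing siRNA and 200.3 ± 12.5 without siRNA (SD, n = 3 each). The log2 difference was 0.46 from non-silencing siRNA (SE 0.09, adjusted p = 0.303) and 0.55 from no siRNA (SE 0.09, adjusted p = 0.115), and neither passed. The next were TNS3 (tensin 3, 0.23, SE 0.11) against non-silencing siRNA and ITGB1BP1, which binds the beta-1 tail, against no siRNA (-0.29, SE 0.13). Between the controls TGFB1I1 (0.25, SE 0.09) and LIMS2 (0.21, SE 0.10) had the smallest p.

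The matrix partners and other receptors held 1 gene that passed. Of 18 basement membrane partners of laminin, 0 passed in any comparison. Of all tested probe sets 0.0263% passed against non-silencing siRNA, 0.0527% against no siRNA and 0% between the controls. The 0 of 18 here and the 0 of 13 below are near these shares. FRAS1 (0.23, SE 0.10) and SMOC1 (-0.20, SE 0.10) had the smallest p against non-silencing siRNA, SMOC1 (-0.29, SE 0.10) and SMOC2 (-0.27, SE 0.13) against no siRNA, and FBLN2 (-0.22, SE 0.14) and the nidogen gene NID2 (-0.24, SE 0.17) between the controls. Of 13 other laminin receptors and integrin companions, all detected on all arrays, 0 passed in any comparison. Above 0 lay 1 of the 13 against non-silencing siRNA (median -0.11), 2 against no siRNA (median -0.15) and 9 between the controls (median 0.03). Of the 13244 probe sets above the median on all arrays, 43.9% lay above 0 in the first (median -0.01), 32.7% in the second (median -0.05) and 34.6% in the third (median -0.04). The 3 comparisons share arrays, and the counts were not tested. DAG1, the gene of the laminin receptor dystroglycan, stood at -0.21 (SE 0.10) against non-silencing siRNA and -0.30 (SE 0.10) against no siRNA. CD151, a tetraspanin that binds laminin-binding integrins, stood at -0.20 (SE 0.11) in the first and SDC2 at -0.27 (SE 0.11) in the second, and CD9 (-0.22, SE 0.12) and CD47 (-0.16, SE 0.10) between the controls.

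Of 17 tested integrin ligands, 1 passed against each control: THBS2, thrombospondin 2, which rose to 509.8 ± 79.0 after TCF7L1 siRNA, against 251 ± 11.3 after non-silencing siRNA and 247 ± 34.0 without siRNA (log2 differences 0.97 and 0.998, adjusted p = 0.0455 and 0.0303 by limma). With any 1 of the 9 arrays left out, 0 of the 9 fits kept this call against non-silencing siRNA (adjusted p 0.052 to 0.343) and 2 of the 9 against no siRNA (0.0237 to 0.175). Of all tested probe sets 0.0219% passed as higher against non-silencing siRNA and 0.0307% against no siRNA. The list was chosen with earlier results of these data known, so its count of genes that passed is no evidence about integrin ligands as a group. FBN2, the gene of the microfibril protein fibrillin 2, was next against non-silencing siRNA (0.37, SE 0.11, adjusted p = 1 to the digits given) and SPP1, the gene of osteopontin, against no siRNA (-0.55, SE 0.17, adjusted p = 0.583). Between the controls 0 of 17 passed (0% of all tested probe sets). FN1 (fibronectin) stood at -0.29 (SE 0.13) there, and EDIL3, a ligand of alpha-V integrins, at -0.30 (SE 0.14).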

How the data were processed

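Transcripts of 9 samples, 3 per group, were measured on Affymetrix whole-transcript arrays. The deposited tables hold intensity signals (linear) made by the authors with Affymetrix Expression Console 1.1.1 and PLIER 2.0 per the submitters' processing notes, which do not give the background and normalization steps. The 2 deposited tables held equal values, and 0 member probe sets shared all values with another. Positions are on build 37, since 97.5% of 5950 probe sets with such a position in their text overlapped it. After 4201 control probe sets were left out, log2(signal + 16) was fitted with limma 3.58.1 under R 4.3.3, with 1 mean per group over 9 arrays, and p-values (two-sided) were adjusted by Benjamini and Hochberg over 22784 probe sets. Fold changes are on that scale, which understates dim genes. The median SE was 0.119, so the number of arrays limits precision. The fit was also run on simulated data, with noise drawn separately for each probe set and array. Such data lack the deviations that many probe sets share within an array, and the outcome is not given here. The file names its negative controls without saying what they are, so detection used the array median, the planned fallback, with control percentiles as alternatives. Chains given per array were ITGB1, LAMA1, chains of detected pairs and trimers, and detected chains among the 8 smallest p of a comparison or past a log2 difference of 0.3, and ITGAE, ITGB3 and LAMA2 were added after their values were seen. In the 4 partner lists, genes that passed and the 2 of smallest p were named. The values of 1 chain are not reported here, though counts include it. Lists and chains were chosen with earlier results of these data known.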

Additional observations from a re-analysis of the deposited data

How the results depend on the processing

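No integrin or laminin chain passed in any of 19 alternatives in any comparison: other offsets, quantile normalization, no filter, a filter at the array median (which tested 19 chains), 2 groups only, array spread as a covariate, the 2 narrowest arrays or any 1 array left out, the other deposited table, and a replicate block. The smallest adjusted p of any chain was 0.122 against non-silencing siRNA, 0.217 against no siRNA and 0.3 between the controls, by limma. With the replicate block the count of chains was 0 in each comparison. Over all probe sets, 11 passed against non-silencing siRNA with the block, where 6 did as reported. Same-numbered arrays had deviations correlated from -0.26 to 0.68. Differently numbered arrays of 2 groups had -0.75 to 0.71, a range that holds the first, so the numbers were not taken as pairs. The log2 difference from non-silencing siRNA ran from 0.39 to 0.48 for ITGB5, 0.24 to 0.47 for LAMB1, -0.29 to -0.16 for LAMB2 and -0.29 to -0.17 for ITGB4. The sign held in every alternative for 11 of 32 chains there, 17 against no siRNA and 15 between the controls. Several alternatives could not change a log2 difference. These were the filter settings, the fit of 2 groups only, the replicate block and the other deposited table, which holds equal values. Leaving out an array of the group not compared could not change it either. Such a count was not made over all tested probe sets. Over all probe sets the calls numbered 4 to 25 (6 as reported), 3 to 20 (12 as reported) and 0. Above the 95th percentile of the negative controls (1443 to 1966) 0 integrin pairs and 0 laminin trimers were detected in any group, against 9 and 5. At their 75th percentile 8 pairs were detected after TCF7L1 siRNA, as ITGB4 lay below it on 1 array, and 9 in the other groups. Leaving out 1 array gave 9 pairs and 5 to 6 trimers. THBS2 passed in 5 of 19 alternatives against non-silencing siRNA and 11 of 19 against no siRNA. Both counts include the other deposited table, whose equal values only repeat the reported call. Antigenomic controls are not marked and were not used.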
